A study of Mus musculus with 8 samples.

Results

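A set of 52 genes that carry a cell through mitosis was followed in hematopoietic stem cells (HSC) and hematopoietic progenitor cells (HPC) sorted from mouse bone marrow. The set was chosen by name from the 21991 genes with annotated exons, and all 52 were found and passed the filter on low counts. Earlier results of these data were known at that choice, so shares of all genes beside the set are a scale and not a test. Bulk RNA-seq of 4 HSC and 4 HPC libraries was analysed. All came from C57BL/6 mice aged 8 to 10 weeks, with no allele or treatment labelled. HSC were Lineage-, Sca1+, c-Kit+, CD150+ and CD34-, and HPC carried the same markers but were CD34+, so the labelled gates differed in CD34 alone. The protocol speaks of 5000 sorted HSCs for every library, and the source name reads as stem cells for both fractions. Nothing in the labels says that libraries came from separate animals, so the p-values measure the spread between libraries, which may be technical.

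Entry into mitosis is driven by the kinase Cdk1 bound to a B-type or A-type cyclin. The chromosomes are then condensed, captured at their kinetochores by spindle microtubules, held back by a checkpoint until all are attached, and released when the anaphase-promoting complex (APC/C) marks cyclin B and securin for destruction. Most of the transcripts encoding this machinery are made in the later part of the cell cycle, so they are commonly read as a sign of dividing cells, and adult HSC are known to be mostly quiescent while progenitors divide more often.

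The mitotic genes were lower in HSC almost without exception. At a Benjamini-Hochberg adjusted p under 0.05 in edgeR's quasi-likelihood test over 12751 genes, 51 of the 52 were lower in HSC and 0 were higher, while 17.6% of all genes tested were lower and 19.6% were higher. The median change of the members was −1.25 on the log2 scale (HSC over HPC), against 0.00 over all genes tested. At least 2-fold lower were 37 members, against 6.08% of all genes tested. The 4 HSC libraries lay wholly below the 4 HPC libraries for 51 members, which was so for 17.2% of all genes tested. Changes of single members ran between −1.94 for Ect2 and −0.28 for Cenpa, the gene that was not called.

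Reads of the 52 genes, summed and scaled to library size by TMM (CPM), came to 3580, 3584, 3306 and 3387 CPM in HSC libraries 1 to 4, against 8026, 6851, 7953 and 6711 CPM in HPC libraries 1 to 4. The HSC libraries lay close together and far under every HPC library, and HPC libraries 1 and 3 stood above HPC libraries 2 and 4. The means were 3464 ± 139.9 CPM over HSC and 7385 ± 700.7 CPM over HPC libraries (SD over 4 libraries, as for every ± on CPM, RPKM and ratios), a ratio of 2.13. Mitotic transcripts thus came to 0.346% of the TMM-scaled library size in HSC and 0.739% in HPC, which is not the raw share of exon reads. Fewer cells in division and less of these RNAs per dividing cell cannot be told apart in bulk RNA.

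**Figure D1:**
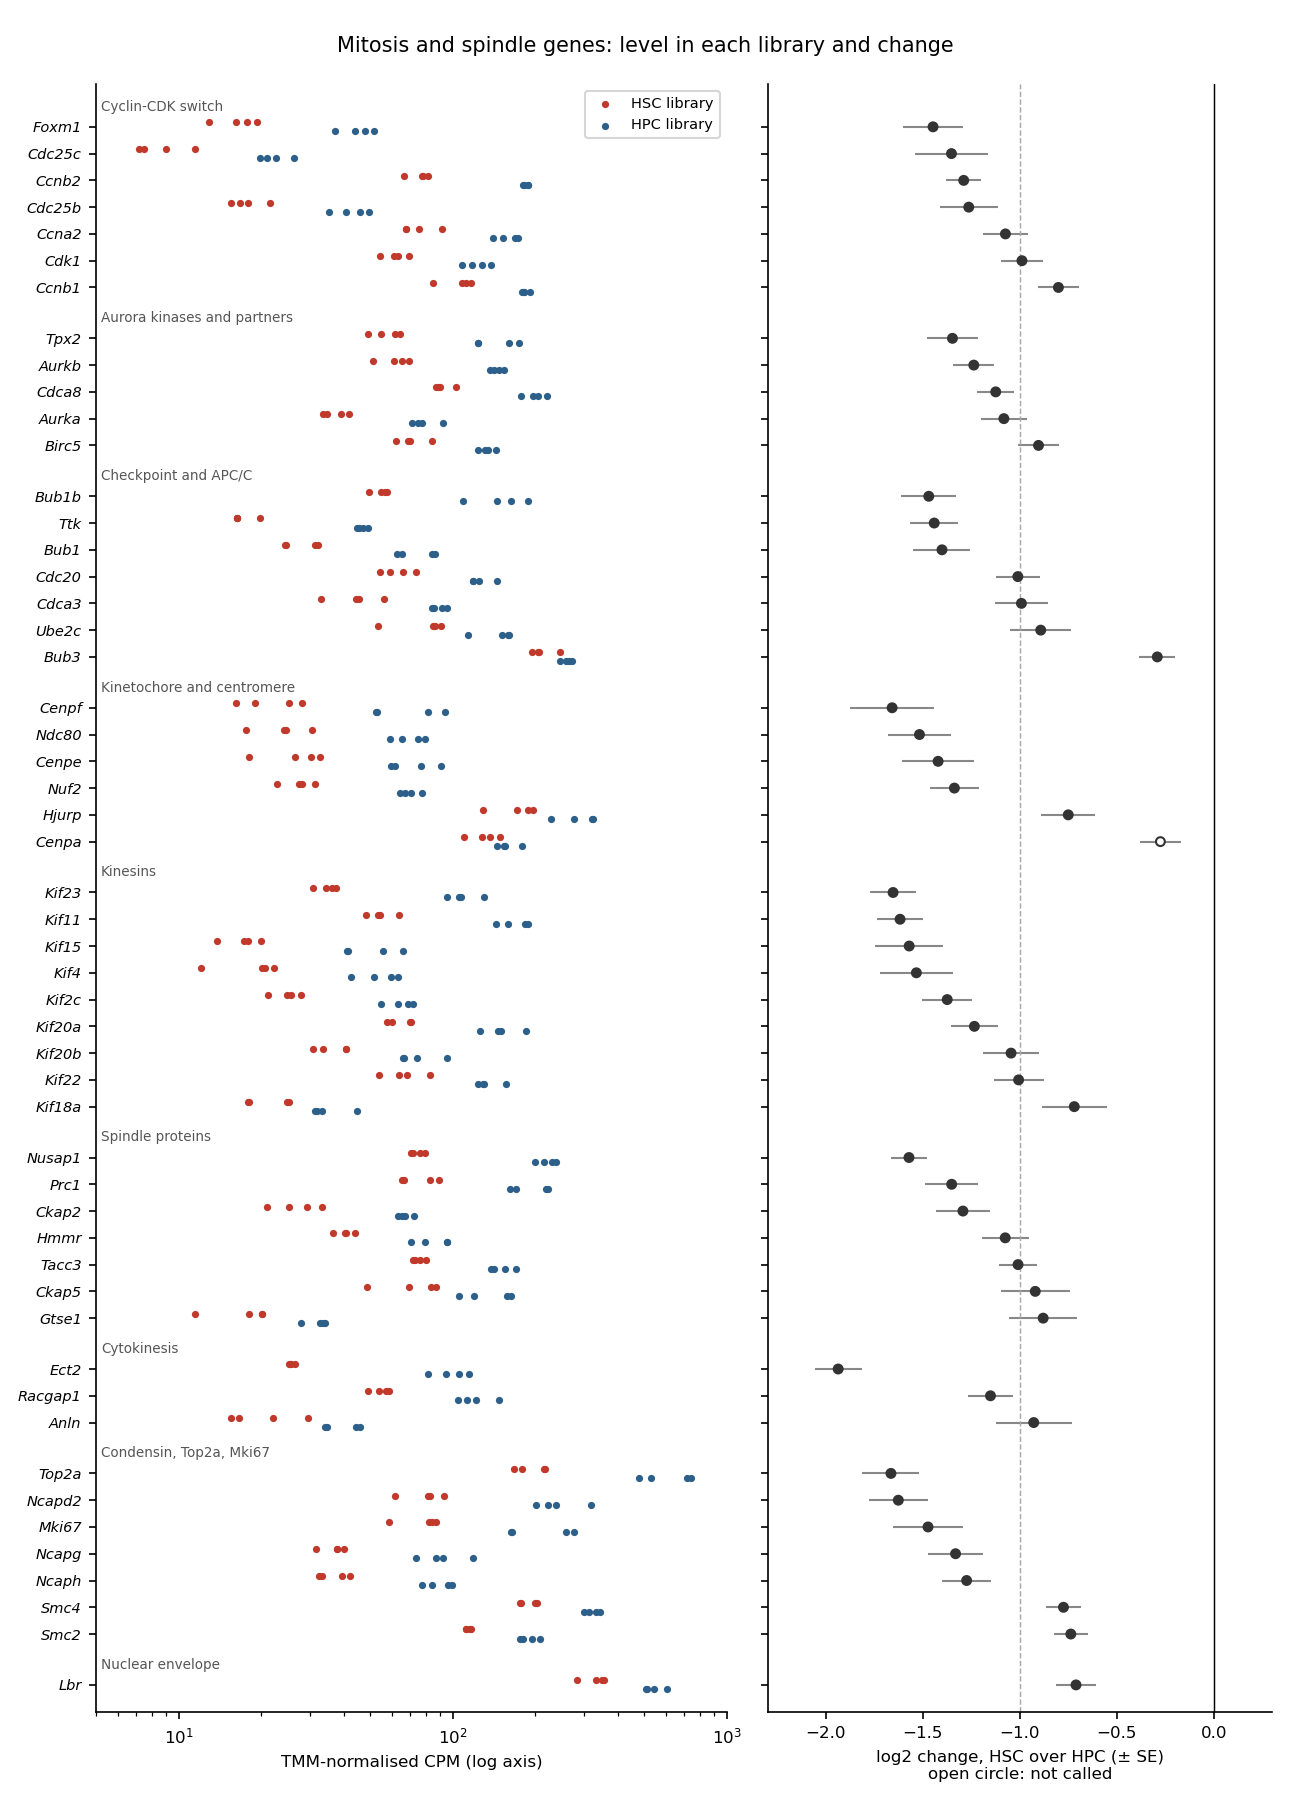
Left, level of each of the 52 genes in every library (TMM-normalised CPM, log axis), with HSC in red and HPC in blue, grouped by role; right, log2 change of HSC over HPC with its SE, and a dashed line at 2-fold lower. Every change lies left of 0, and the open circle marks Cenpa, the single gene not called.

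Promoter sequence is shown for 8 of the genes because many G2 and M phase genes are known to carry a cell cycle genes homology region (CHR), an element bound by the MuvB complex, near their start. Each line holds the 120 bases before the annotated start in the 5′ to 3′ direction of the gene, from RefSeq on GRCm38.p6. The start is RefSeq's, which for Kif11, Prc1 and Top2a is not the gene end given in the files, and for Prc1 the further downstream of its 2 listed starts is shown. Capitals mark the letters of a CHR (TTTGAA or TTCGAA) or of a CCAAT box, on either strand, so that TTCAAA is a CHR and ATTGG is a CCAAT box read from the other strand.
Cdk1, chr10:69352913-69353032, minus strand: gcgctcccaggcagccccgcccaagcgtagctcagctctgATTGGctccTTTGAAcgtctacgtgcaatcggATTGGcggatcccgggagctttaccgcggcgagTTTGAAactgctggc
Cdc20, chr4:118437344-118437463, minus strand: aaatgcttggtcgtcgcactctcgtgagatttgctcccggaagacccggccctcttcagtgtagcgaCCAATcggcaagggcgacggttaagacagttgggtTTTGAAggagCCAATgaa
Ube2c, chr2:164769809-164769928, plus strand: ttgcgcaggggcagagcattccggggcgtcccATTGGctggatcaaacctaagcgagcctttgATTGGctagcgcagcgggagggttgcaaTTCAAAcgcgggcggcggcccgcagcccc
Kif11, chr19:37376262-37376381, plus strand: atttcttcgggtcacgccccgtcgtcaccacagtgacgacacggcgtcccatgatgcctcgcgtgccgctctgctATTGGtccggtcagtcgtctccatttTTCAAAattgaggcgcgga
Prc1, chr7:80294356-80294475, plus strand: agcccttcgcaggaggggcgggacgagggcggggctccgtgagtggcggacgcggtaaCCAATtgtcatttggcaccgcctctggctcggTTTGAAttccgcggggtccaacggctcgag
Top2a, chr11:99024190-99024309, minus strand: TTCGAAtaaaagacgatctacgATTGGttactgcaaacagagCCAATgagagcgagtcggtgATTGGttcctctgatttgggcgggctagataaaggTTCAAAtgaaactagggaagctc
Bub3, chr7:131560250-131560369, plus strand: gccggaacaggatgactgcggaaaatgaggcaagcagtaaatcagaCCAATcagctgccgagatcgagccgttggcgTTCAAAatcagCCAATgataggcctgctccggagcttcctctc
Nusap1, chr2:119618178-119618297, plus strand: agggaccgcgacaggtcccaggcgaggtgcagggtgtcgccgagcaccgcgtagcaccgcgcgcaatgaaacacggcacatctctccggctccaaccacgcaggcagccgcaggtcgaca

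In Cdk1, the CHR nearest the start begins 15 bases before it, and a CCAAT box lies 33 bases further upstream. A like arrangement was found in Cdc20, Ube2c, Kif11, Prc1, Top2a and Bub3, with 26 to 35 bases between the first letters of the box and of the CHR. Nusap1, shown as the contrast, holds neither word in its 120 bases. Matching letters are a description, not a shown binding site.

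RefSeq promoter windows, 250 bases before to 50 bases after a start, were at hand for 45 of the 52 genes in 49 windows. Tpx2, Ccna2, Cdc25c, Smc4, Foxm1, Aurkb and Kif20a had none. A CHR was present in 36 of the 45 genes (80.0%), against 17.0% of the genes tested and 21.7% of all genes with a window. Within 50 bases of the start the share was 71.1% of the members, 4.56% of the genes tested and 6.12% of all. CCAAT was present in 75.6% of the members, 43.3% of the genes tested and 41.1% of all.

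The pairing printed above, a CCAAT box that begins 25 to 40 bases before a CHR, was held by 35.6% of the members, 0.957% of the genes tested and 0.803% of all genes. This distance and the 50-base window were chosen after the sequences were seen. An E2F octamer (TTTGGCGC, TTTCCCGC, TTTGCCGC or TTTCGCGC, either strand) was present in 11.1% of the members, against 4.71% of the genes tested and 2.60% of all. Its words are longer than those of CHR and CCAAT, so the shares of different motifs are not on 1 scale. No word of one of these motifs holds a word of another. E2F factors are the classic regulators of G1 and S phase genes.

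Members with and without a CHR overlapped in their change. Members with one had a median log2 change of −1.28 (n = 36, lowest −1.94, highest −0.28), and members without one −1.01 (n = 9, lowest −1.57, highest −0.72). Cenpa and Bub3, which differed least between the fractions, both hold a CHR, and Nusap1, with no match, was 2.97-fold lower.

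**Figure D2:**
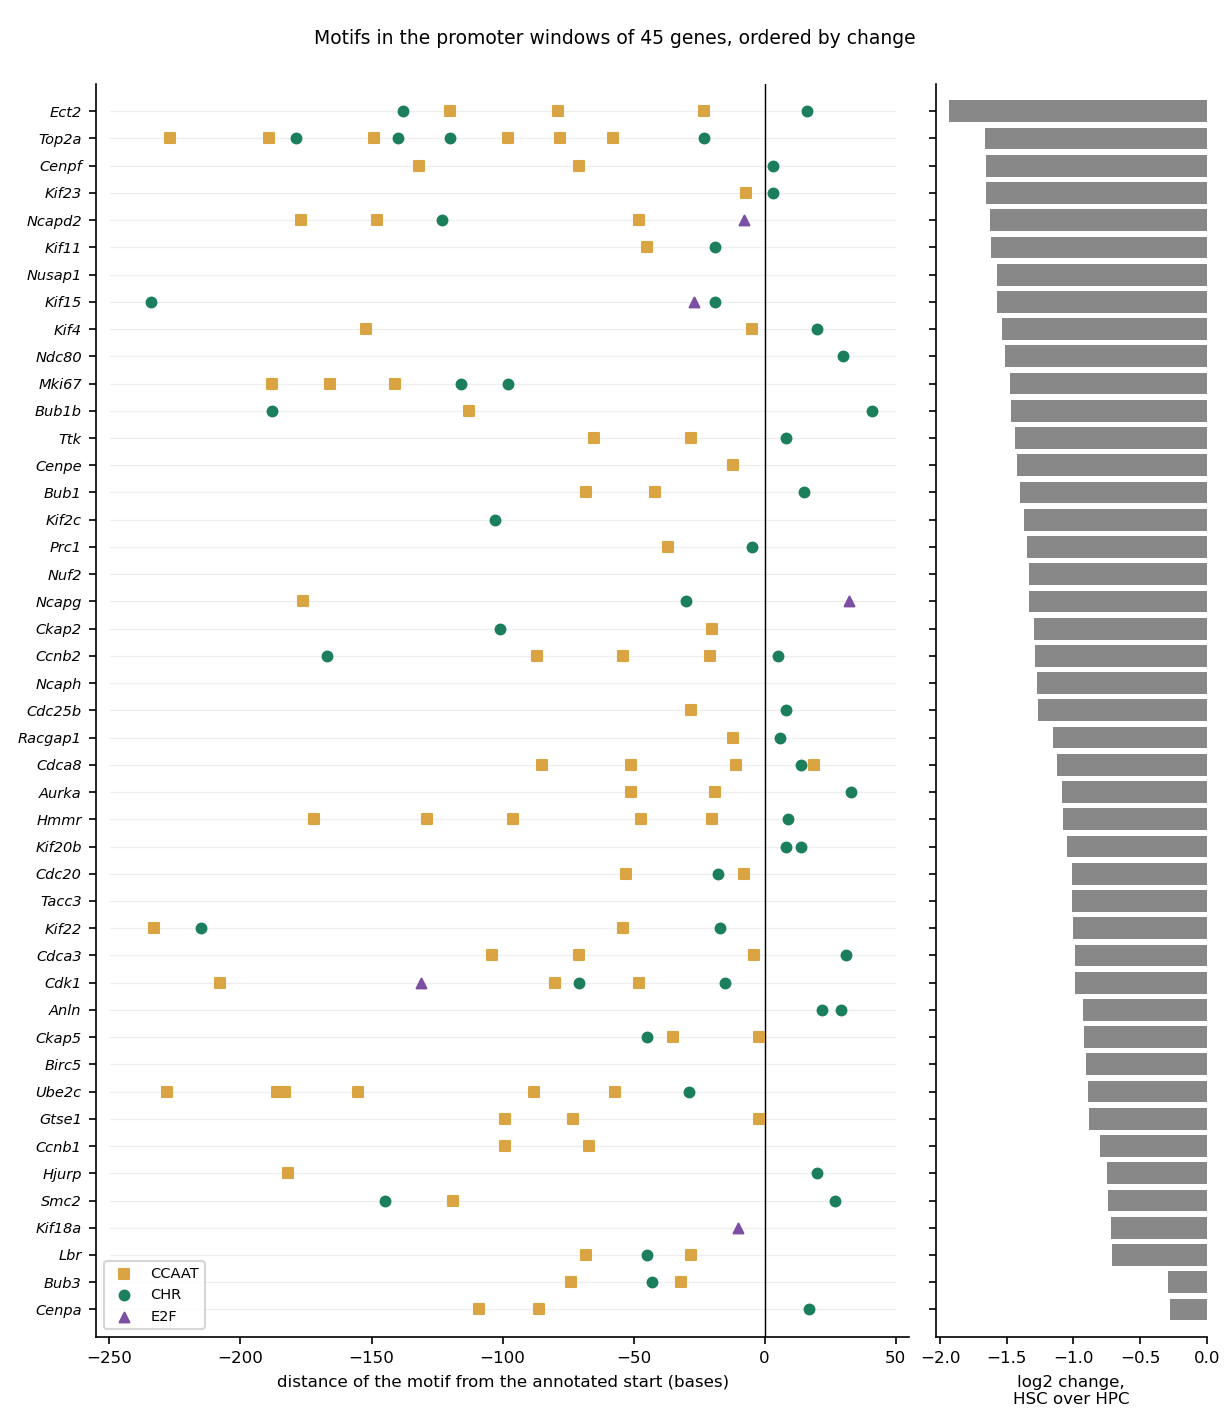
Position of CHR, CCAAT and E2F words along the promoter window of each member with a RefSeq promoter (bases from the annotated start), with members ordered by their change and the first listed start used for the 4 genes with 2 starts (for Prc1 the upstream one, whose CHR begins 5 bases before it). CHR matches crowd within 50 bases on either side of the start and CCAAT boxes lie mostly before it, from the top of the order to the bottom.

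The genes of the Cdk1 switch, which commits a cell to mitosis, were lower in HSC in 7 of 7 cases, with a median log2 change of −1.26. Foxm1, a forkhead transcription factor that drives G2 and M phase genes, changed most in this group. It was at 19.3, 17.8, 16.1 and 12.9 CPM in the HSC libraries, against 47.6, 43.8, 51.7 and 37.2 CPM in the HPC libraries. The highest HSC library was far under the lowest HPC library, and Foxm1 was 2.73-fold lower (log2 change −1.45 with an SE of 0.16, edgeR adjusted p = 4.1e-06).

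Cdk1 itself (chr10:69336635-69352912, minus strand, mm10), the mitotic kinase, was at 63.0, 61.0, 54.3 and 69.3 CPM in the HSC libraries, against 118, 108, 128 and 137 CPM in the HPC libraries. All 4 HSC libraries were near the same level and below every HPC library, and Cdk1 was 1.99-fold lower in HSC (log2 change −0.99 with an SE of 0.11, edgeR adjusted p = 4.8e-06). Its B-type cyclins did not move alike. Ccnb1 was at 108, 112, 84.7 and 117 CPM in the HSC libraries, against 179, 181, 182 and 192 CPM in the HPC libraries, with HSC library 3 the lowest of the 8, and it was 1.74-fold lower (log2 change −0.80 with an SE of 0.10, edgeR adjusted p = 2.6e-05). Ccnb2 was at 77.0, 77.9, 66.5 and 81.2 CPM in the HSC libraries, against 188, 182, 181 and 189 CPM in the HPC libraries. The HPC libraries of Ccnb2 were almost level with each other, and HSC lay 2.44-fold below them (log2 change −1.29 with an SE of 0.09, edgeR adjusted p = 6e-08).

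Cyclin A2 (Ccna2), which acts with Cdk2 in S phase and Cdk1 in G2, was 2.10-fold lower in HSC, at 75.4 ± 11.0 CPM over HSC and 159 ± 15.1 CPM over HPC libraries. Cdc25b and Cdc25c, phosphatases that strip inhibitory phosphates from Cdk1, were 2.40-fold and 2.55-fold lower. Cdc25c was at 8.78 ± 1.95 CPM over HSC and 22.4 ± 2.84 CPM over HPC libraries.

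Aurora kinases and their partners were lower in 5 of 5 cases, with a median log2 change of −1.12. Tpx2, which activates Aurora A and nucleates microtubules around chromosomes, was at 64.1, 48.8, 54.5 and 61.6 CPM in the HSC libraries, against 174, 124, 161 and 124 CPM in the HPC libraries. It was 2.54-fold lower in HSC, with no overlap of the fractions (log2 change −1.35 with an SE of 0.13, edgeR adjusted p = 1.8e-06). Aurka, the kinase of centrosomes and spindle poles, was 2.12-fold lower (log2 change −1.08 with an SE of 0.12, edgeR adjusted p = 5.7e-06).

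Aurkb, Cdca8 (borealin) and Birc5 (survivin) belong to the chromosomal passenger complex, which corrects faulty attachments and later guides cytokinesis. Birc5 was at 69.8, 68.7, 61.9 and 84.0 CPM in the HSC libraries, against 135, 123, 131 and 143 CPM in the HPC libraries. Its fractions did not overlap, and at 1.87-fold lower it changed less than the other members of this group (log2 change −0.90 with an SE of 0.11, edgeR adjusted p = 1e-05). Aurkb was 2.36-fold lower, at 61.5 ± 7.78 CPM over HSC and 145 ± 7.53 CPM over HPC libraries, and Cdca8 2.18-fold lower, at 91.7 ± 7.25 CPM over HSC and 199.8 ± 17.5 CPM over HPC libraries.

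In the group of the spindle checkpoint and APC/C, 7 of 7 genes were lower, with a median log2 change of −1.01, with the checkpoint genes spread widely within the group. Bub1b (BubR1), which inhibits the APC/C until chromosomes are attached, was at 57.6, 49.4, 54.7 and 56.7 CPM in the HSC libraries, against 188, 144, 163 and 109 CPM in the HPC libraries. HPC library 4 was well under the other HPC libraries but still far above the HSC libraries, and Bub1b was 2.77-fold lower in HSC (log2 change −1.47 with an SE of 0.14, edgeR adjusted p = 1.5e-06). Ttk (Mps1), the kinase that starts checkpoint signalling, was 2.72-fold lower and Bub1, a checkpoint kinase at the kinetochore, 2.64-fold lower.

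Bub3, the adaptor that brings Bub1 and BubR1 to kinetochores, was at 195, 205, 207 and 246 CPM in the HSC libraries, against 266, 259, 246 and 272 CPM in the HPC libraries. HSC library 4 came up to the lowest HPC library, so the fractions barely missed overlapping, and Bub3 was 1.22-fold lower (log2 change −0.29 with an SE of 0.09, edgeR adjusted p = 0.024). This call was lost without HSC library 1, 2 or 3, where the edgeR adjusted p was 0.082, 0.066 and 0.063.

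Cdc20, the activator of the APC/C in mitosis, was 2.01-fold lower (log2 change −1.01 with an SE of 0.11, edgeR adjusted p = 7e-06). Ube2c, the ubiquitin-conjugating enzyme that works with the APC/C, was at 90.9, 85.8, 53.2 and 84.5 CPM in the HSC libraries, against 151, 113, 159 and 160.3 CPM in the HPC libraries. HSC library 3 was far below the other HSC libraries, and HPC library 2 below the other HPC libraries, yet the fractions did not overlap, and Ube2c was 1.85-fold lower (log2 change −0.89 with an SE of 0.16, edgeR adjusted p = 0.00043). Cdca3, known for promoting entry into mitosis through loss of the kinase Wee1, was 1.99-fold lower, at 44.7 ± 9.31 CPM over HSC and 88.9 ± 5.25 CPM over HPC libraries.

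Kinetochore and centromere genes were lower in 5 of 6 cases, with a median log2 change of −1.38. Cenpf, a large kinetochore protein that accumulates in G2, was at 28.2, 25.3, 19.0 and 16.2 CPM in the HSC libraries, against 80.8, 52.6, 93.6 and 52.7 CPM in the HPC libraries. HPC libraries 1 and 3 stood far above HPC libraries 2 and 4, and HSC lay below all of them, 3.15-fold lower (log2 change −1.66 with an SE of 0.21, edgeR adjusted p = 2.6e-05). Ndc80 and Nuf2, partners in the complex that grips microtubule ends, were 2.87-fold and 2.53-fold lower. Cenpe, a kinesin that moves chromosomes to the spindle equator, was 2.68-fold lower.

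Cenpa (chr5:30666886-30674837, plus strand, mm10), the histone H3 variant that marks centromeres, was at 136, 128, 109.7 and 148 CPM in the HSC libraries, against 178, 155, 154 and 145 CPM in the HPC libraries. HSC library 4 was above HPC library 4, so the fractions overlapped, and the difference did not pass the threshold (log2 change −0.28 with an SE of 0.11, edgeR adjusted p = 0.057). Without HSC library 4 its edgeR adjusted p was 0.021, and without HPC library 4 it was 0.042. Hjurp, the chaperone that loads Cenpa, was lower by a wider margin, at 171 ± 29.7 CPM over HSC and 288 ± 45.9 CPM over HPC libraries, 1.68-fold lower (log2 change −0.75 with an SE of 0.14, edgeR adjusted p = 0.00064).

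Mitotic kinesins, motor proteins that push, slide and sort microtubules and chromosomes, were lower in 9 of 9 cases, with a median log2 change of −1.37. Kif23, the motor subunit of centralspindlin at the spindle midzone, was at 37.4, 36.2, 34.4 and 30.9 CPM in the HSC libraries, against 105, 94.9, 130.2 and 107 CPM in the HPC libraries. The HSC libraries sat tightly together under the HPC range, and Kif23 was 3.15-fold lower (log2 change −1.65 with an SE of 0.12, edgeR adjusted p = 7.6e-08). Kif11 (Eg5), which pushes the spindle poles apart, was at 48.1, 63.8, 53.4 and 54.3 CPM in the HSC libraries, against 184, 159, 188 and 144 CPM in the HPC libraries. HPC libraries 1 and 3 were again the highest, and Kif11 was 3.07-fold lower (log2 change −1.62 with an SE of 0.12, edgeR adjusted p = 7.7e-08).

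Kif11 is listed at a further locus in the files, and 0% of its reads were counted as uniquely placed, so its value rests on reads shared between the listed copies. Kif18a, which damps the swings of chromosomes at the spindle equator, changed least of the kinesins, at 25.3, 18.0, 24.8 and 17.9 CPM in the HSC libraries, against 31.4, 31.8, 44.9 and 33.4 CPM in the HPC libraries. HPC library 3 was far above the other HPC libraries, the HSC libraries lay lower without overlap, and Kif18a was 1.65-fold lower (log2 change −0.72 with an SE of 0.17, edgeR adjusted p = 0.0034). The other kinesins, Kif15, Kif4, Kif2c, Kif20a, Kif20b and Kif22, were between 2.97-fold and 2.01-fold lower.

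Spindle microtubule proteins were lower in 7 of 7 cases, with a median log2 change of −1.08. Nusap1 (chr2:119618298-119650165, plus strand, mm10), which bundles microtubules near chromosomes, was at 70.6, 79.0, 75.8 and 71.7 CPM in the HSC libraries, against 215, 231, 238 and 199.7 CPM in the HPC libraries. Libraries of each fraction were close together with a wide gap between them, and Nusap1 was 2.97-fold lower (log2 change −1.57 with an SE of 0.09, edgeR adjusted p = 9.7e-09). Prc1, the bundler of the central spindle, was 2.55-fold lower, and Ckap2, a microtubule-stabilising protein, 2.45-fold lower.

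Hmmr, a spindle pole protein also known as a hyaluronan receptor, and Tacc3, which with Ckap5 (chTOG) cross-links the fibres that pull on kinetochores, were 2.11-fold and 2.01-fold lower. Ckap5 was 1.89-fold lower, at 72.0 ± 17.4 CPM over HSC and 136 ± 28.0 CPM over HPC libraries. Gtse1, a microtubule-associated protein of G2 and mitosis, was at 11.4, 20.2, 20.1 and 18.0 CPM in the HSC libraries, against 34.2, 33.5, 32.8 and 27.9 CPM in the HPC libraries. HSC library 1 was the lowest, all HPC libraries were level and higher, and Gtse1 was 1.84-fold lower (log2 change −0.88 with an SE of 0.17, edgeR adjusted p = 0.0011).

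Cytokinesis genes held the widest difference of the set. Ect2 (chr3:27097222-27153909, minus strand, mm10), the exchange factor that switches on RhoA to build the contractile ring, was at 25.3, 25.7, 26.6 and 25.5 CPM in the HSC libraries, against 105, 81.3, 114 and 94.2 CPM in the HPC libraries. The 4 HSC libraries were nearly equal, the HPC libraries were spread well above them, and Ect2 was 3.83-fold lower (log2 change −1.94 with an SE of 0.12, edgeR adjusted p = 1.8e-08). Racgap1, the partner of Kif23 in centralspindlin that recruits Ect2, was 2.22-fold lower (log2 change −1.15 with an SE of 0.12, edgeR adjusted p = 2.4e-06).

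Anln (anillin), the scaffold of the contractile ring, was at 29.6, 22.1, 15.4 and 16.6 CPM in the HSC libraries, against 45.7, 34.7, 44.4 and 34.2 CPM in the HPC libraries. HSC libraries were themselves spread, with the highest just under the lowest HPC library, and Anln was 1.90-fold lower (log2 change −0.93 with an SE of 0.20, edgeR adjusted p = 0.0017).

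Chromosome condensation genes, Top2a and Mki67 were lower in 7 of 7 cases, with a median log2 change of −1.33. Top2a (chr11:98992947-99024205, minus strand, mm10), the topoisomerase that untangles sister chromatids, was at 214, 218, 178 and 168 CPM in the HSC libraries, against 718, 527, 740.2 and 479 CPM in the HPC libraries. HPC libraries 1 and 3 were far above 2 and 4, and HSC lay 3.17-fold lower (log2 change −1.66 with an SE of 0.15, edgeR adjusted p = 6.1e-07). Mki67, the coat of mitotic chromosomes and the usual marker of proliferating cells, was at 82.1, 86.7, 83.6 and 58.4 CPM in the HSC libraries, against 259, 164, 278 and 162 CPM in the HPC libraries. The same HPC libraries were high, HSC library 4 was the lowest of all, and Mki67 was 2.78-fold lower (log2 change −1.47 with an SE of 0.18, edgeR adjusted p = 1.6e-05).

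Condensin subunits did not move alike. Smc2 and Smc4 form the core of both condensin I and condensin II, whereas Ncapd2, Ncapg and Ncaph belong to condensin I. Smc2 was at 115, 116, 112 and 112 CPM in the HSC libraries, against 194, 181, 208 and 176 CPM in the HPC libraries. HSC libraries were nearly equal, all below the HPC libraries, and Smc2 was 1.67-fold lower (log2 change −0.74 with an SE of 0.09, edgeR adjusted p = 9.5e-06), with Smc4 1.71-fold lower (log2 change −0.77 with an SE of 0.09, edgeR adjusted p = 9e-06). Ncapd2 was 3.09-fold lower (log2 change −1.63 with an SE of 0.15, edgeR adjusted p = 1e-06), Ncapg 2.52-fold lower and Ncaph 2.42-fold lower.

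Lbr, the lamin B receptor of the inner nuclear membrane and a sterol reductase, was at 334, 349, 358 and 283 CPM in the HSC libraries, against 543, 511, 607 and 505 CPM in the HPC libraries. The fractions did not overlap, and Lbr was 1.64-fold lower (log2 change −0.71 with an SE of 0.10, edgeR adjusted p = 6.1e-05). It was the smallest change after Cenpa and Bub3.

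**Figure D3:**
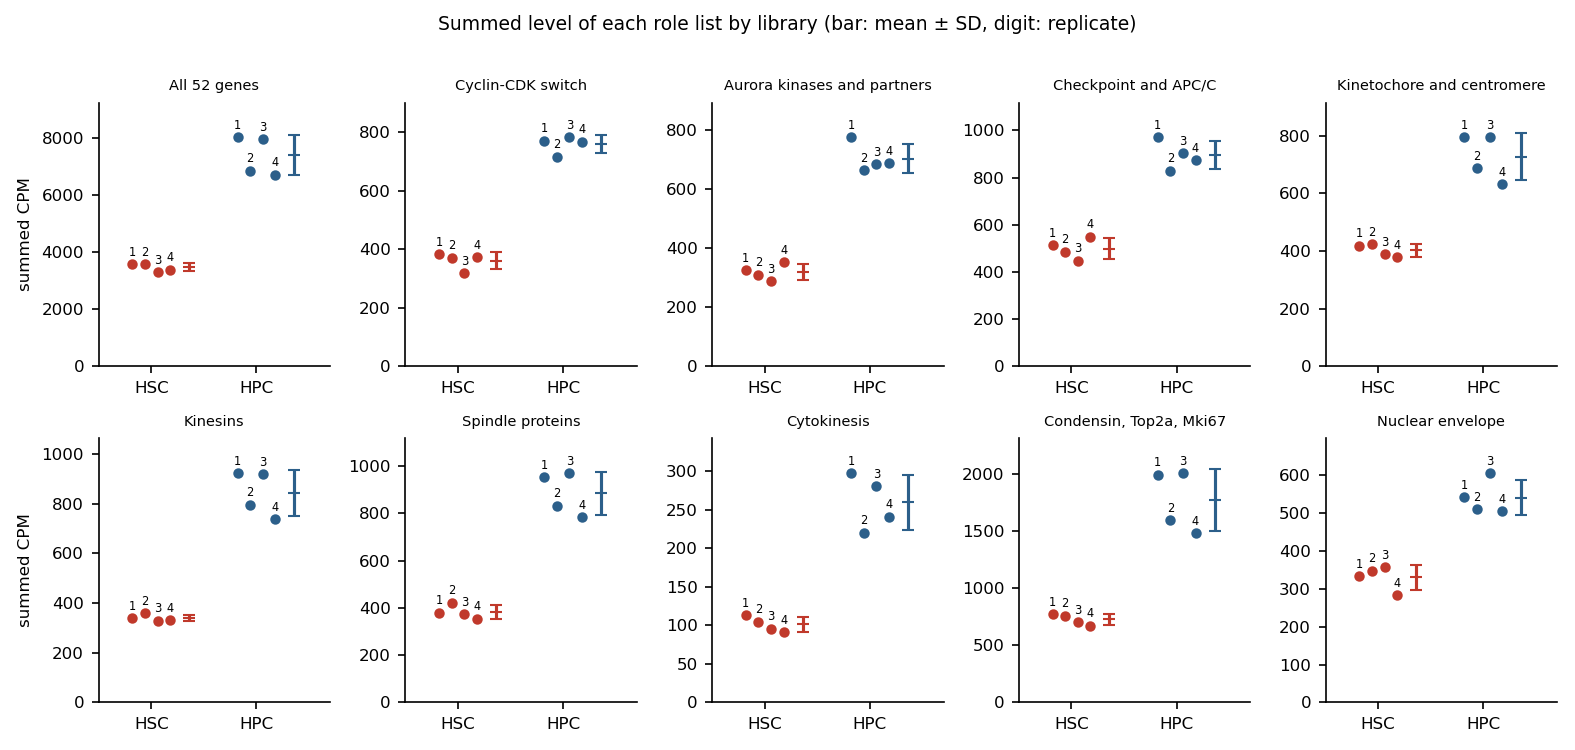
Summed TMM-normalised CPM of all 52 genes and of each role list in the 4 HSC (red) and 4 HPC (blue) libraries, with the replicate number above each point and the mean ± SD beside them. HSC libraries lie below all HPC libraries in every panel, and HPC libraries 1 and 3 lie above HPC libraries 2 and 4 in every panel but that of the Aurora group, where library 4 is level with library 3.

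By role, the summed level was furthest apart for cytokinesis genes, 101 ± 9.93 CPM over HSC and 259.8 ± 35.5 CPM over HPC libraries, a ratio of 2.56. Kinesins followed with 339.9 ± 13.4 CPM over HSC libraries and 844 ± 92.2 CPM over HPC libraries, a ratio of 2.48. The checkpoint and APC/C group, with 499 ± 43.5 CPM over HSC libraries and 895 ± 60.1 CPM over HPC libraries, and the kinetochore group, with 403 ± 21.8 CPM over HSC libraries and 727 ± 81.5 CPM over HPC libraries, were nearer, at ratios of 1.79 and 1.81.

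Per kilobase of exon, on the deposited RPKM scale, the median member was at 10.6 in HSC and 24.4 in HPC, and 27 members in HSC and 41 in HPC reached 10 RPKM. In HSC the order began with Bub3, at 73.2 ± 8.61 RPKM in HSC and 85.6 ± 4.48 RPKM in HPC. Lbr followed at 65.7 ± 6.75 RPKM in HSC and 103 ± 8.05 RPKM in HPC, then Ube2c at 62.9 ± 12.8 RPKM in HSC and 112 ± 15.9 RPKM in HPC and Cenpa at 61.3 ± 7.25 RPKM in HSC and 71.1 ± 7.63 RPKM in HPC. Neighbours in this order differed by less than their spread in HSC. In HPC Ube2c and Lbr came first, and Cdca8, Ccnb2 and Top2a lay within the spread of Bub3. Cdca8 was at 42.1 ± 3.75 RPKM in HSC and 88.0 ± 9.27 RPKM in HPC, Ccnb2 at 36.6 ± 2.77 RPKM in HSC and 85.8 ± 2.78 RPKM in HPC and Top2a at 27.7 ± 3.09 RPKM in HSC and 84.2 ± 18.1 RPKM in HPC. At the low end stood Cenpf, at 1.43 ± 0.329 RPKM in HSC and 4.32 ± 1.25 RPKM in HPC, and Anln, at 2.30 ± 0.664 RPKM in HSC and 4.21 ± 0.661 RPKM in HPC.

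How far single members were apart was set beside each other as ratios of RPKM within a library, for 14 pairs of partners chosen with earlier results of these data known. These ratios are given as a description, and because of that choice no p-value is reported for them. In 9 of the 14 pairs the HSC and HPC libraries did not overlap. Several of these pairs share Bub3, Racgap1 or Smc2, so they are not separate observations. The share over other gene pairs was not computed. Among single genes tested, the HSC libraries lay wholly below for 17.2% and wholly above for 19.5%. The direction of the ratios follows in part from the changes given above, since the same reads enter both.

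Ccnb1 over Ccnb2 was 0.937, 0.953, 0.848 and 0.959 in the HSC libraries, against 0.634, 0.664, 0.670 and 0.676 in the HPC libraries. Every HSC library was above every HPC library, so by total reads Ccnb1 held a larger share of these 2 cyclins in HSC. Of the Ccnb1 reads 81.3% were uniquely placed, against 100% of the Ccnb2 reads. The checkpoint kinase Bub1 over its adaptor Bub3 was 0.0675 ± 0.0154 in HSC and 0.144 ± 0.0274 in HPC, and Bub1b over Bub3 was 0.153 ± 0.0172 in HSC and 0.344 ± 0.0803 in HPC.

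Within the midzone machinery, Kif23 over Racgap1 was 0.560 ± 0.00341 in HSC and 0.803 ± 0.130 in HPC and Ect2 over Racgap1 0.344 ± 0.0290 in HSC and 0.593 ± 0.0676 in HPC, lower in HSC in each case. Among condensin subunits, Ncapd2 over Smc2 was 0.751 ± 0.115 in HSC and 1.39 ± 0.259 in HPC, Ncaph over Smc2 0.664 ± 0.0908 in HSC and 0.966 ± 0.123 in HPC and Ncapg over Smc2 0.463 ± 0.0414 in HSC and 0.696 ± 0.0960 in HPC. The core pair Smc2 over Smc4 overlapped, at 0.483 ± 0.0392 in HSC and 0.469 ± 0.0266 in HPC. In the passenger complex Aurkb over Birc5 was 1.36 ± 0.146 in HSC and 1.71 ± 0.0975 in HPC and did not overlap.

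For 4 further pairs the fractions overlapped. Aurka over Tpx2 was 1.40 ± 0.285 in HSC and 1.16 ± 0.116 in HPC, and Aurkb over Cdca8 0.503 ± 0.0693 in HSC and 0.543 ± 0.0286 in HPC. Cenpa over Hjurp was 4.25 ± 1.35 in HSC and 2.96 ± 0.354 in HPC, and Ndc80 over Nuf2 1.02 ± 0.282 in HSC and 1.14 ± 0.220 in HPC. Overlap does not show the ratios to be alike.

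**Figure D4:**
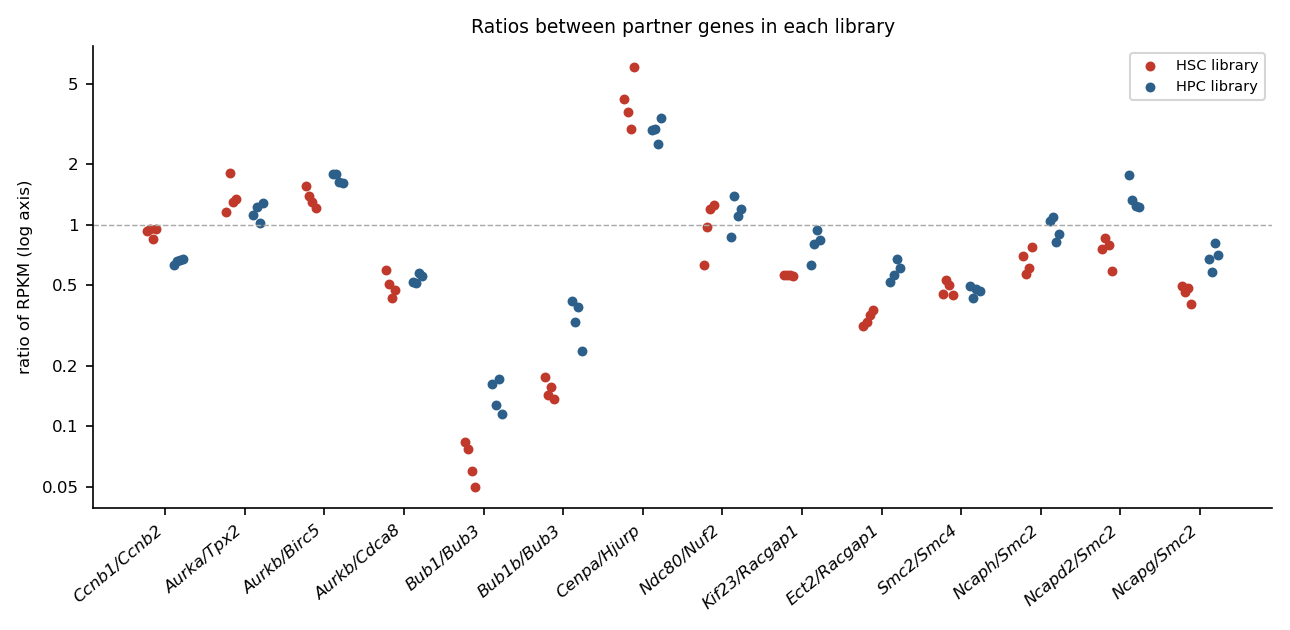
Ratio of RPKM of 2 partner genes in each library, HSC left (red) and HPC right (blue), for the 14 pairs. Ccnb1/Ccnb2 is higher in every HSC library, and 8 pairs, such as Bub1/Bub3 and Ncapd2/Smc2, are lower in every HSC library.

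Members varied between libraries of a fraction about as other genes did. The median coefficient of variation was 13.0% in HSC and 12.8% in HPC, against 11.6% in HSC and 11.8% in HPC for 8558 genes of the same range of level. HPC library 1 was the highest of its fraction for 21 members and HPC library 3 for 20, while HPC library 4 was the lowest for 25 and HPC library 2 for 17. HPC libraries 1 and 3 were the highest pair for 27 members, whose median exon length was 4365 bases, against 2554 bases for the others. The part of transcript length in this order was not tested.

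Reads that fall in introns, which come largely from unspliced RNA, were tested in the same way as a separate measure. Of the 52 members 49 were lower in HSC and 0 were higher, against 10.0% of 12710 genes lower on intron reads. The median log2 change was −1.43 on intron reads, against −1.25 on exon reads for the same genes, while over all genes the intron median was 0.01. The intron change was more negative than the exon change for 38 members (73.1%), with a median difference of −0.21, whereas 39.1% of 2563 genes within the members' range of exon change had it so, with a median difference of 0.08. Those 2563 genes were matched on the range alone, and most of them had a smaller exon change than the median member. No test was made of the difference between the members and those genes.

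Cenpa, not called on exon reads, had an intron change of −0.79 (edgeR adjusted p = 0.0048), and Bub3 had −0.49 (edgeR adjusted p = 0.039). Ccna2 at −1.69 (edgeR adjusted p = 0.056), Cenpf at −0.78 (edgeR adjusted p = 0.16) and Gtse1 at −1.43 (edgeR adjusted p = 0.2) were the members not called on intron reads. Introns took 12.3% to 14.9% of the members' gene reads in HSC libraries and 13.9% to 15.8% in HPC libraries.

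**Figure D5:**
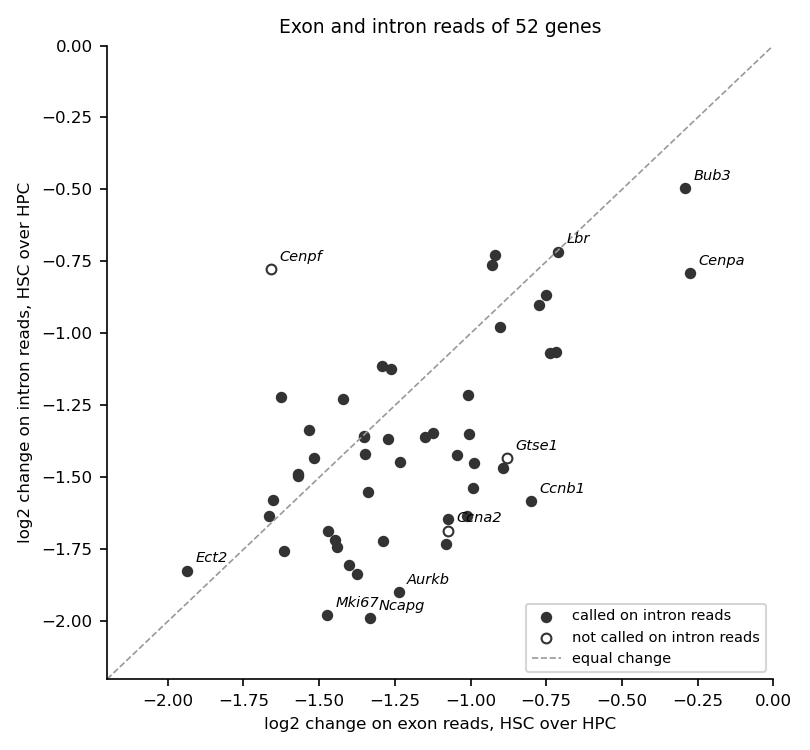
Change of each member in intron reads against its change in exon reads (log2, HSC over HPC), with a line where they are equal. Most members lie below the line, and all members are below 0 on both axes.

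Beyond the 52 genes, other genes of the same machinery were read from lists drawn from general knowledge. These lists too were chosen with earlier results of these data known, so they are not independent of the 52 genes. Their counts stand beside 17.6% lower and 19.6% higher among all genes tested. Of 31 further kinetochore and centromere genes, 26 were lower, 1 was higher and 4 were not called (median log2 change −0.79). Spc25, of the Ndc80 complex, was 2.27-fold lower (log2 change −1.19 with an SE of 0.10, edgeR adjusted p = 6.3e-07) and Nsl1, of the Mis12 complex, 2.32-fold lower. Cenpt, an inner kinetochore protein that anchors Ndc80, was higher, at 56.5 ± 5.12 CPM over HSC and 42.7 ± 3.05 CPM over HPC libraries, 1.32-fold (log2 change 0.40 with an SE of 0.11, edgeR adjusted p = 0.011).

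Among 18 further mitotic kinases and checkpoint genes 17 were lower and 0 higher (median −0.95). Those with the smallest adjusted p were Pkmyt1, an inhibitory kinase of Cdk1, 2.67-fold lower, Pbk, a mitotic kinase, 2.29-fold lower, and Incenp, the scaffold of the passenger complex, 2.26-fold lower. Of 5 further mitotic kinesins 4 were lower and 0 higher (median −1.38), with Kif14, needed for cytokinesis, 3.88-fold lower (log2 change −1.95 with an SE of 0.22, edgeR adjusted p = 7.9e-06), and Kif18b and Kif24 2.43-fold and 2.87-fold lower. Of 16 kinesins of transport tested 2 were lower, Kif17 and Kif5a, and 3 were higher, with a median of 0.00. These counts are near the shares of all genes tested, 17.6% lower and 19.6% higher. Among those higher was Kif1b, 2.29-fold (log2 change 1.20 with an SE of 0.19, edgeR adjusted p = 0.00016).

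Of 10 further cytokinesis genes 9 were lower and 0 higher (median −1.58). Cep55, which calls in the machinery of abscission, was at 12.2, 12.8, 8.10 and 13.7 CPM in the HSC libraries, against 61.3, 50.3, 49.5 and 59.9 CPM in the HPC libraries, 4.72-fold lower (log2 change −2.24 with an SE of 0.17, edgeR adjusted p = 1.1e-07). Depdc1b was 4.02-fold lower. All 3 further genes of condensin II were lower (median −0.69), Ncapg2 2.31-fold, Ncapd3 1.62-fold and Ncaph2 1.31-fold. Of 28 further spindle and centrosome genes 18 were lower and 0 higher (median −0.52), with Ckap2l 2.51-fold, Stil 3.10-fold and Psrc1 2.92-fold lower.

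The APC/C and the genes that part sister chromatids were mixed. Of 19 genes 7 were lower, 1 was higher and 11 were not called (median −0.10). Fbxo5 (Emi1), an inhibitor of the APC/C, was 1.97-fold lower (log2 change −0.98 with an SE of 0.10, edgeR adjusted p = 2.4e-06). Espl1 (separase), the protease that cuts cohesin, was at 14.4, 18.9, 19.2 and 8.28 CPM in the HSC libraries, against 74.5, 45.0, 48.6 and 37.9 CPM in the HPC libraries, 3.39-fold lower (log2 change −1.76 with an SE of 0.25, edgeR adjusted p = 7e-05).

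Pttg1 (securin), the inhibitor of separase, went the other way, at 60.4, 60.6, 63.9 and 74.3 CPM in the HSC libraries, against 35.1, 41.3, 32.0 and 34.5 CPM in the HPC libraries. All HSC libraries were above all HPC libraries, 1.81-fold higher in HSC (log2 change 0.86 with an SE of 0.12, edgeR adjusted p = 5.4e-05). Of 13 cohesin genes 8 were lower and 0 higher (median −0.40), with Cdca5 (sororin) 2.76-fold, Esco2 1.85-fold and Rad21 1.38-fold lower; the count was 5 without HPC library 1 and 5 without HPC library 3.

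Regulators that act at CHR, CCAAT and E2F sites, as binders or as members of the bound complexes, were themselves mixed. Of 20 genes 11 were lower, 2 were higher and 7 were not called (median −0.41). Mybl2 (B-Myb), which joins MuvB to switch on mitotic genes, was 1.94-fold lower (log2 change −0.96 with an SE of 0.13, edgeR adjusted p = 4.5e-05), Rbl1 (p107) 1.91-fold lower and Nfya, a subunit of the CCAAT-binding factor, 1.60-fold lower. E2f5 and E2f4, known as repressor E2Fs, were higher, E2f5 at 18.2 ± 0.460 CPM over HSC and 9.19 ± 1.86 CPM over HPC libraries, 1.98-fold (log2 change 0.99 with an SE of 0.18, edgeR adjusted p = 0.00052), and E2f4 at 186 ± 20.8 CPM over HSC and 139 ± 24.0 CPM over HPC libraries, 1.33-fold (log2 change 0.42 with an SE of 0.13, edgeR adjusted p = 0.018).

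DNA replication genes, the other large part of the cell cycle programme, were lower in 33 of 34 cases with 0 higher, at a median log2 change of −0.77. At least 2-fold lower were 5 of these 34, among them Uhrf1 (2.47-fold) and Hells (2.42-fold), against 37 of the 52 mitotic genes. Summed, they were at 3855 ± 222.5 CPM over HSC and 6575 ± 432.7 CPM over HPC libraries, a ratio of 1.71, against 2.13 for the mitotic genes. The difference between these lists was not tested.

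The libraries held 16291733 to 19070313 exon reads in HSC and 18223082 to 20564901 in HPC, and a count of 3 reads was worth 0.149 to 0.179 CPM. Cd34, at 120.2 ± 15.3 CPM over HSC and 1276 ± 55.9 CPM over HPC libraries, was lower in HSC, as the labels have it (log2 change −3.41 with an SE of 0.11, edgeR adjusted p = 5.7e-11). Slamf1, the CD150 gene, was at 37.6 ± 6.02 CPM over HSC and 3.14 ± 0.736 CPM over HPC libraries, although both fractions were labelled CD150+. Of the 4 genes of the labelled gate, Cd34, Slamf1, Ly6a (Sca1) and Kit, 2 were higher in HSC and 1 was lower. Among all genes tested, 19.6% were higher and 17.6% lower. HSC markers were higher in 6 of 6 cases (summed 910 to 1119 CPM in HSC libraries and 242 to 310.2 CPM in HPC libraries), and Flt3 and Cd48, progenitor markers, were lower in 2 of 2 (34.9 to 46.3 CPM in HSC libraries and 938 to 1024 CPM in HPC).

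Markers of other cells were read against the shares of all genes tested, 17.6% lower and 19.6% higher. Erythroid markers were higher in 5 of 9 and lower in 0, summing to 405 to 669 CPM in HSC libraries and 60.0 to 188 CPM in HPC libraries. Mast cell and basophil markers were lower in 4 of 4, with 5.38 to 37.0 CPM in HSC libraries and 78.2 to 195 CPM in HPC. Neutrophil and monocyte markers were lower in 2 of 7 tested and higher in 0, with 179 to 262 CPM in HSC libraries and 234 to 399 CPM in HPC, and Ly6g had 0 reads in every library. T and NK markers were higher in 4 of 6 and lower in 1 (Nkg7), with 69.6 to 99.6 CPM in HSC libraries and 281 to 373 CPM in HPC. Megakaryocyte markers were higher in 2 of 5 and lower in 1, B cell markers higher in 2 of 4 tested, and stromal and endothelial markers higher in 1 and lower in 1 of 4 tested. The part of these cells in the mitotic gene difference was not tested.

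Some members share reads with other genes. Uniquely placed reads were under 90% for 6 members, Kif11, Prc1, Ccna2, Ccnb1, Ckap5 and Kif20a. More than 10% of exonic bases overlapped a gene on the opposite strand for 7 members, Kif20a, Ube2c, Kif4, Ncapg, Cdc25c, Ccna2 and Prc1, and whether counting used strand is not given in the sources used here. Values of these genes are uncertain to that degree. All of them but Kif11, which could not be tested there, were lower in HSC on unique reads as well.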

How the data were processed

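Total RNA of sorted cells was converted to cDNA with a SMARTer Pico kit, amplified by 18 PCR cycles and made into libraries with Nextera XT, per the labels' protocols. The build was mm10, per the submitters' processing notes. How reads were aligned and counted, and whether by strand, is not given here.

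Per the file headers, the deposited files hold counts of exon, intron and gene reads for each row, in total and for reads placed at 1 site. The deposited RPKM, which the authors computed from exon reads, equals reads per kilobase of exon times 1 constant per library. It served for levels between genes and for ratios. Total exon reads were summed per NCBI GeneID, since 1931 of 46113 IDs stand on several rows.

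edgeR 4.0.16 (R 4.3.3) was used for the count test, the quasi-likelihood F test over all 8 libraries with no covariate, after filterByExpr with its defaults and TMM scaling. The Benjamini-Hochberg adjustment ran over 12751 genes, at a threshold of 0.05. Changes are HSC over HPC, and the SE is the size of the change over the square root of F. The biological coefficient of variation was 18.3%. Levels are TMM-normalised CPM with the SD over 4 libraries, and a fold is the ratio of such means. P-values do not see PCR duplicates. Alternatives were limma 3.58.1, DESeq2 1.42.0, other scalings, filters and read classes, and leaving out each library.

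The members and lists were chosen with earlier results of these data known. Per-library values are given in each role list for genes with the largest and smallest change, and genes not called, and also for Cdk1, Ccnb2, Ube2c, Kif11 and Mki67, which were chosen with their values known. Of each further list up to 3 called genes with the smallest adjusted p and a mean of at least 5 CPM are named, and up to 2 called against the direction of most. A gene that this rule would name is not reported here. Promoters came from RefSeq on GRCm38.p6.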

Additional observations from a re-analysis of the deposited data

Results flagged for a closer look

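In 104 sets of 4 libraries, the members in each fraction, 4 held a library far from the other 3 by Dixon's test, where chance alone gives about 5%. Ttk in HSC library 4 was the highest at 19.7 CPM, with all its libraries at 16.3, 16.3, 16.2 and 19.7 CPM in HSC against 45.5, 44.6, 47.1 and 48.8 CPM in HPC. Ube2c in HSC library 3 was the lowest at 53.2 CPM, with 90.9, 85.8, 53.2 and 84.5 CPM in HSC against 151, 113, 159 and 160.3 CPM in HPC. Kif18a in HPC library 3 was the highest at 44.9 CPM, with 25.3, 18.0, 24.8 and 17.9 CPM in HSC against 31.4, 31.8, 44.9 and 33.4 CPM in HPC. Mki67 in HSC library 4 was the lowest at 58.4 CPM, with 82.1, 86.7, 83.6 and 58.4 CPM in HSC against 259, 164, 278 and 162 CPM in HPC. All of these genes stayed lower in HSC without that library.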

How the results depend on the processing

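Across 23 alternatives, 42 to 52 members were lower in HSC and 0 were higher in each. The lowest count, 42, came from requiring a change beyond 1.5-fold. Leaving out each library in turn gave 50 to 52 members and medians of −1.27 to −1.20. On intron reads, added after seeing the data, the median moved to −1.43; the cause was not tested. Under the other alternatives it lay between −1.27 and −1.17. Of 1195 member results under the alternatives, 1170 kept their direction and side of the threshold, 17 lost the call, 8 gained it and 0 turned round. Bub3 lost its call under upper quartile scaling (edgeR adjusted p = 0.091), and Cenpa gained one with DESeq2 (adjusted p = 0.047), with limma (adjusted p = 0.025) and on gene reads (edgeR adjusted p = 0.021). A change beyond 1.5-fold left 803 genes lower and 1296 higher of 2240 and 2493, and intron reads 1274 and 1393.

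With the replicate number as a block 52 members were lower at a median of −1.25. Deviations of same-numbered libraries were weakly correlated (−0.012, −0.118, 0.086 and 0.146), and not every library correlated best with its own number. Such correlations cannot exclude pairing, and the main test used the numbers only as names. Over all genes the block gave 2448 lower and 2588 higher, against 2240 and 2493 without it. Counts in several further lists rest on small changes: with a change beyond 1.5-fold required, 12 further kinetochore, 8 kinase and checkpoint, 2 APC/C, 2 cohesin, 7 spindle and 13 replication genes were lower. Every member was above the limit of 3 reads in every library.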
